A study of Mus musculus with 4 samples.

Results

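The cytosolic ribosomal protein genes were examined in brain endothelial cells (ECs) with and without Foxq1. They were chosen by name alone, as symbols made of Rpl or Rps with a number and at most 1 of the letters a, l, x and y, together with Rplp0, Rplp1, Rplp2 and Rpsa. This gave 85 of the 12693 gene symbols in the table, 51 of the large and 34 of the small ribosomal subunit. In the annotation 80 of the 85 were protein coding and 5 (Rpl32l, Rpl6l, Rps3a2, Rps3a3 and Rps4l) were pseudogenes that carry a gene-like symbol. Fau, Rack1 and Rpl36al also encode ribosomal proteins but fall outside the name rule, and Rps10 was not analysed here.

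The samples were brain, from C57BL/6 mice at E18 according to the labels, and CD31-sorted cells of the cerebral cortex according to the methods. The 2 WT samples were compared with 2 Foxq1 cKO samples, in which floxed Foxq1 (FOXQ1fl/fl) was deleted by Cre under the Tie2 promoter, and the controls were littermates without Cre. Tie2 is active in endothelium and in part of the blood lineage, so Cre activity is not limited to brain ECs. Neither the number of embryos in a sample nor their litter is given, so the spread between 2 samples may in part be technical.

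The cytosolic ribosome joins a large subunit, which forms peptide bonds and holds the exit tunnel, to a small subunit, which reads the message. Most ribosomal proteins are present at 1 copy per ribosome, so their genes are expressed together and at high levels in growing cells. Their messages begin with a C followed by a run of pyrimidines, the 5′ terminal oligopyrimidine (TOP) tract. The protein LARP1 binds this tract and holds the message back when the kinase complex mTORC1 is inactive. TOP control acts in large part on translation, which is not seen in RNA-seq. Whether it also altered the level of these messages was not tested. Myc and ETS-family factors act on transcription of these genes. Ribosomal protein genes have left many processed pseudogenes, intronless copies of the messages elsewhere in the genome, and reads can match both.

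The following 30-base windows of the GRCm38.p6 assembly (RefSeq promoters, 5′ to 3′ on the strand of the gene) show the start regions of genes on which the results turn. The annotated start is the first base after 15 upstream bases, and capitals mark a C followed by at least 4 pyrimidines that begins within 10 bases of it. Rpl34, Rpl35, Rps18 and Rpl28 were higher in both Foxq1 cKO samples, Rpl14 and Rpl15 were the only genes lower in both, and Rps6, Rpl4 and Rplp0 were among the most abundant. Rpl34 has 2 annotated starts.
Rpl34, chr3:130730323-130730352, minus strand: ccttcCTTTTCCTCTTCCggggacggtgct
Rpl34, chr3:130730384-130730413, minus strand: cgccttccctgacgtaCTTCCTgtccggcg
Rpl35, chr2:39005117-39005146, minus strand: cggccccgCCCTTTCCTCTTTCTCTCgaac
Rps18, chr17:33955651-33955680, minus strand: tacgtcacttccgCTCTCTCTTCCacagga
Rpl28, chr7:4792950-4792979, plus strand: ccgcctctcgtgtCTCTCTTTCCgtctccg
Rpl14, chr9:120571502-120571531, plus strand: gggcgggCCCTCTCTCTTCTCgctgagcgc
Rpl15, chr14:18270972-18271001, minus strand: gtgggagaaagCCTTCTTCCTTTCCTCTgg
Rps6, chr4:86857353-86857382, minus strand: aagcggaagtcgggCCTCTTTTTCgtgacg
Rpl4, chr9:64173372-64173401, plus strand: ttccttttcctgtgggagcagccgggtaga
Rplp0, chr5:115559452-115559481, plus strand: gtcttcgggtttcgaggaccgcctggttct

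RefSeq promoters were at hand for 61 of the 85 genes. A tract of 8 or more bases (a C, then only C or T) began within 10 bases of a start in 24 of them, or 39.3%, against 9.43% of 27025 genes with a promoter and 10.4% of the 9332 among these that the table lists. The tract was thus more frequent in ribosomal protein genes than in all genes with a promoter, as is known of TOP messages. It was present both in genes that were higher (Rpl34, Rpl35, Rps18 and Rpl28) and in those that were lower (Rpl14 and Rpl15). Of the 28 genes with a promoter that were higher in both Foxq1 cKO samples 50% held it, and of the other 33 genes 30.3% did. A gene was counted if any of its annotated starts held the feature. The 28 genes had 39 promoters and the other 33 had 34, so the former had more starts that could hold it. The shares were not corrected for this. The ETS core (CCGGAAG on either strand, whose reverse complement can overlap the pyrimidine tract) lay in a promoter, 300 bases long, of 39.3% of the ribosomal protein genes. Of the listed genes with a promoter 20.6% held it. The forkhead core TGTTTA, searched on both strands, lay in a promoter of 9.84% of the ribosomal protein genes and of 10.3% of listed genes. These letters were thus no more frequent in ribosomal protein genes. The forkhead core lay in a promoter of 14.3% of the 28 genes higher in both Foxq1 cKO samples (4 genes). It lay in a promoter of 6.06% of the other 33 (2 genes), which had fewer promoters per gene. The paper reports that FOXQ1 prefers GTTTC, and neither this nor other letters that FOXQ1 may prefer were searched.

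Depth was 15827166 to 21466436 reads on listed genes per sample. Ribosomal protein genes took 1.18% and 1.22% of the reads in WT and 1.30% and 1.26% in Foxq1 cKO, so both Foxq1 cKO samples were above both WT samples. The shares of each subunit alone overlapped, at 0.687% and 0.767% against 0.766% and 0.773% for the large and 0.496% and 0.450% against 0.532% and 0.487% for the small subunit. Summed normalized counts were 214064 and 217239 in WT and 223505 and 217396 in Foxq1 cKO, so the second samples of the groups nearly tied. With 2 samples a group, the exact permutation test of a single value cannot go below a two-sided p of 0.333. Foxq1 itself was read at 353 and 297 normalized counts in WT and at 5.44 and 32.6 in Foxq1 cKO, which matched the labels. All 10 endothelial markers were detected, with the tight junction gene Cldn5 at 126706 to 151977 normalized counts, but so were all 8 pericyte markers, all 10 microglia and macrophage markers and 6 of 7 erythroid markers, so the sorted cells were not endothelial only. Of the endothelial markers 6 (60%) were lower and 1 (10%) was higher in both Foxq1 cKO samples, against 18% each way over all genes. Their summed normalized counts were 281483 and 258535 in WT and 232869 and 252918 in Foxq1 cKO. The sums were 155361 and 153361 against 160522 and 146111 for pericyte markers, 11808 and 13212 against 8572 and 10305 for microglia and macrophage markers, 6364 and 5803 against 4268 and 6086 for neuron markers, 21387 and 22717 against 22925 and 20428 for neural progenitor and glia markers, and 20673 and 15683 against 15841 and 20480 for erythroid markers. Their part in the ribosomal protein results was not tested, and in bulk samples a change in the cells present cannot be told apart from a change in RNA per cell.

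The genes of the ribosome differed widely in reads per kb although most of the proteins are used in equal numbers. On the scale of normalized reads per kb of transcript the median ribosomal protein gene stood at 1589, against 176 for all listed genes, and 75 of the 85 were above the median of all listed genes. Rpl4, which lines the exit tunnel, was the most abundant at 17732 normalized reads per kb, followed by Rps6, the substrate of the S6 kinases, at 14517, Rps3 at 12807 and Rps9 at 12178. At the lower end stood Rpl39, another protein of the tunnel wall, at 41.9, Rps29 at 77.5, Rpl24 at 94.1 and Rps15 at 94.5. The highest and the lowest protein-coding gene that was tested differed 423-fold in normalized reads per kb. Reads can match pseudogenes and other genes of shared sequence, so these values need not be transcript levels. The part of shared sequence in this range was not tested. The median level was 1352 for the large subunit and 1796 for the small subunit.

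**Figure D1:**
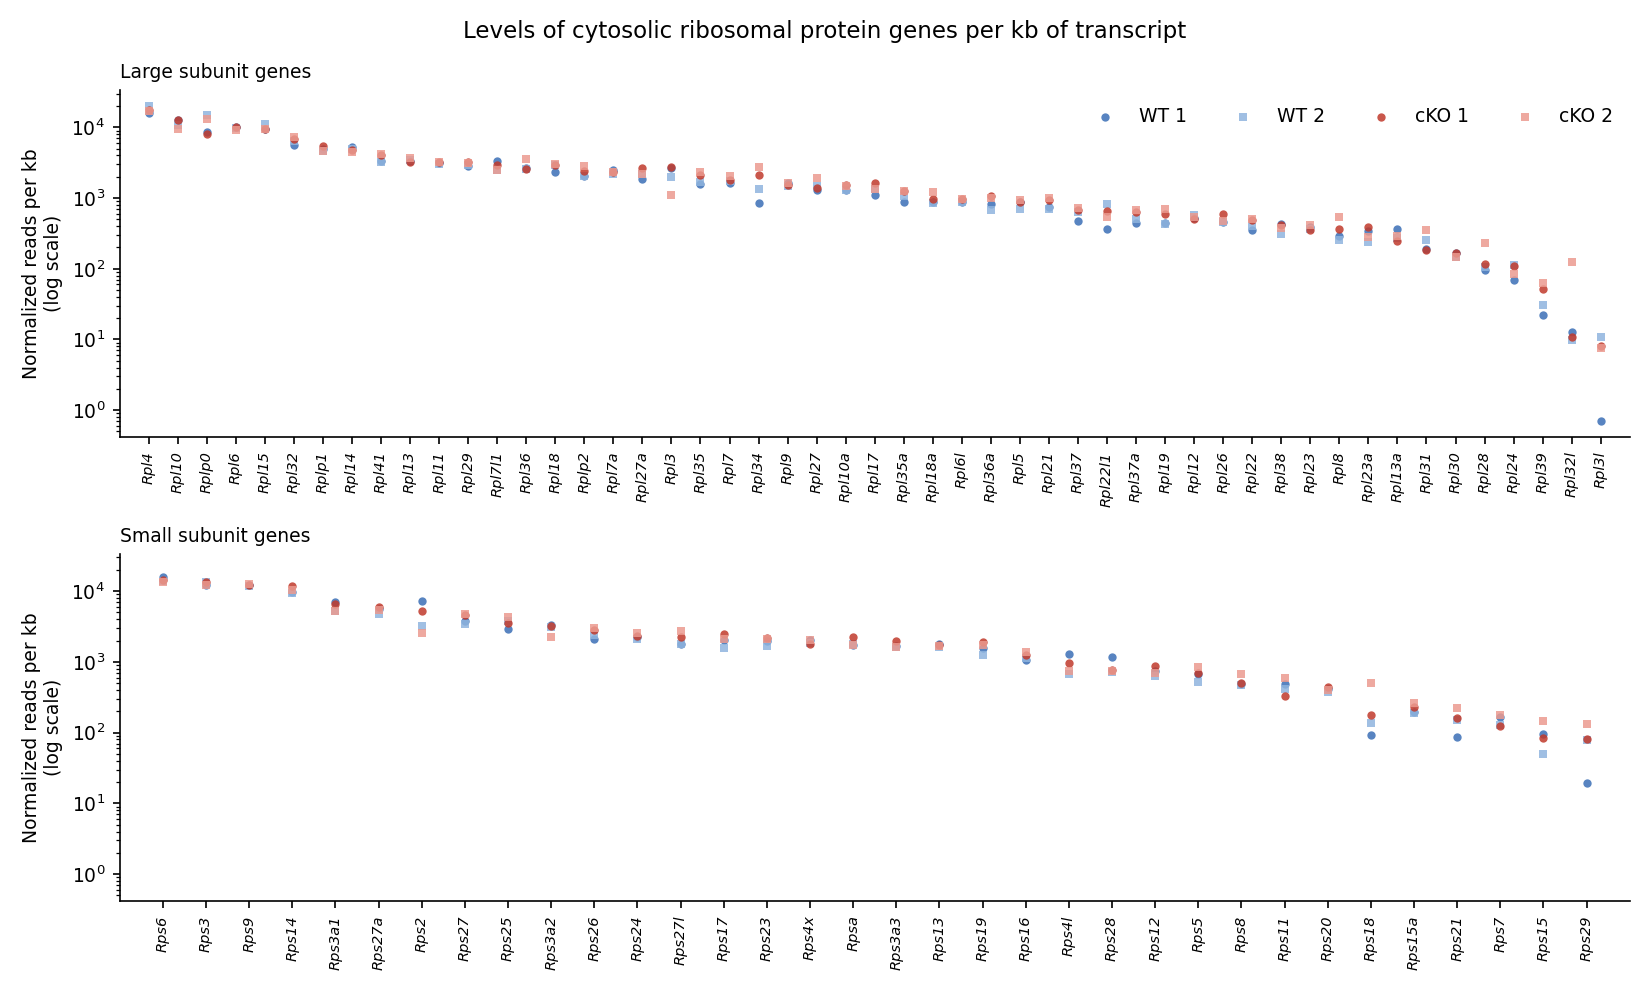
Normalized reads per kb of transcript (log axis) for each cytosolic ribosomal protein gene, ordered by level, in the large subunit (top) and the small subunit (bottom). Each point is 1 sample (WT in blue, Foxq1 cKO in red). Levels run from 17732 for Rpl4 down to 6.80 for Rpl3l, and for most genes the 4 samples lie close together compared with the differences between genes.

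The 5 most abundant genes by mean normalized count were Rpl4, Rplp0, Rps6, Rpl6 and Rps3, and together they held 36.6% of the normalized counts of the group. Rps6 was read at 14094 and 12380 in WT and at 12678 and 11831 in Foxq1 cKO, Rpl6 at 12751 and 12467 against 12924 and 11742, and Rps3, which sits at the mRNA entry, at 11677 and 12661 against 12919 and 11513. The groups overlapped for each of these 5 genes. Their log2 fold changes (Foxq1 cKO minus WT, limma on log2 of the value plus 1) lay between -0.13 and 0.00. For Rps3 the 95% confidence interval ran from -0.32 to 0.32. Rpl3l, a paralogue of Rpl3 known from striated muscle, was the only gene too low to be tested, with 1, 13, 9 and 9 reads in the 4 samples.

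Many of the less abundant ribosomal protein genes were slightly higher in Foxq1 cKO cells. Of the 84 genes tested, 63 (75%) had a log2 fold change above 0, against 50.7% of the 12472 genes tested in all. Both Foxq1 cKO samples were above both WT samples for 41 genes (48.8%), against a background of 18%, and below both for 2 genes (2.38%), Rpl14 and Rpl15, against a background of 18%. The median log2 fold change of the 84 genes was 0.20, beside 0.01 over all genes. The differences were small: 74 of the 84 genes had a log2 fold change within 0.5 of 0, 10 exceeded 0.5 and none was below -0.5. Counts and medians over the group carry no test, because these genes were chosen with results of these data known and genes of 1 sample share its RNA.

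Few single genes passed a test in the moderated fits. In limma the error of a gene is drawn towards a trend over all genes, so it is not that gene's replicate spread alone. At an unadjusted p under 0.05 in limma, 1 of the 84 genes passed (Rpl34), against a background of 5.22% of all genes tested, so the share of ribosomal protein genes called was below that of all genes. The 1 call was higher in Foxq1 cKO (background 2.17%) and none was lower (background 3.05%). None passed at an adjusted p under 0.05 (Benjamini-Hochberg over all genes, smallest adjusted p = 0.857), nor did any other gene of the table, of which 651 had an unadjusted p under 0.05. DESeq2 and edgeR (quasi-likelihood test) on whole reads also called 1 ribosomal protein gene each at an unadjusted p under 0.05, against backgrounds of 6.49% and 4.98%, and none at an adjusted p under 0.05, where DESeq2 called 0.465% of all genes. A linear model without moderation, which uses only each gene's own spread, called 10 of the 84 genes, against a background of 5.57%. Limma without a trend called 2, against 5.41%. For 43 of the 84 genes the 95% confidence interval lay within 1 of 0 on the log2 scale, so for the others a 2-fold change lay within the interval.

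**Figure D2:**
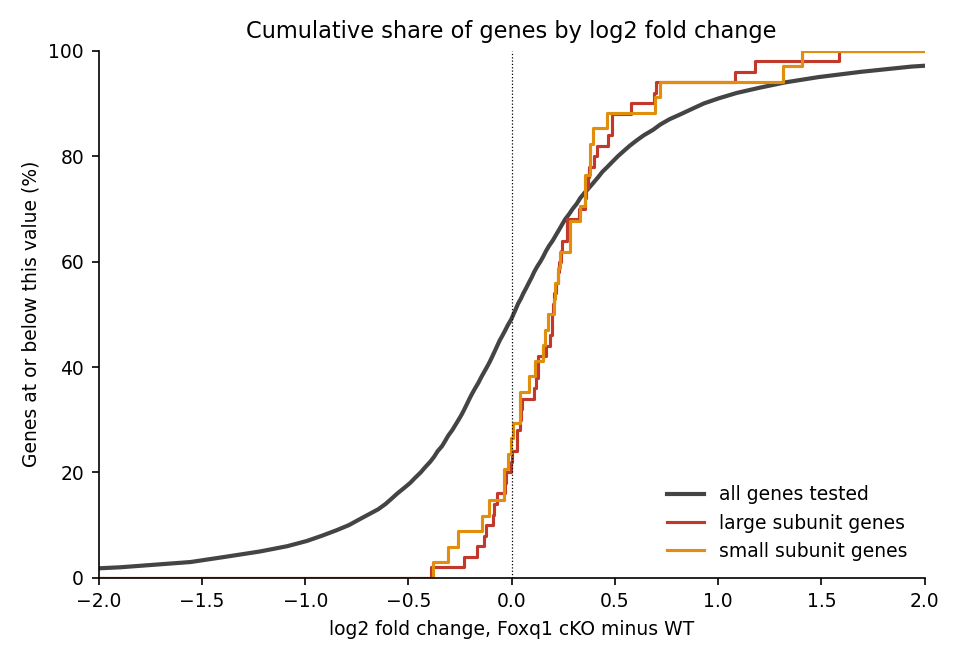
Cumulative share of genes (%) against the log2 fold change (Foxq1 cKO minus WT) for all 12472 genes tested, the 50 large subunit genes and the 34 small subunit genes. Both ribosomal curves are steeper than that of all genes and are shifted to the right at their middle, with medians of 0.20 and 0.19 against 0.01.

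The share of genes higher without overlap was largest at intermediate levels. Of the 33 genes with a mean of 500 to 2000 normalized counts, 24 (72.7%) were higher without overlap and none was lower, with a median log2 fold change of 0.28. Of all genes at that level 17.7% were higher and 17.9% lower, with a median of 0.00. Of the 25 tested genes with a mean under 500, 11 (44%) were higher and none was lower, with a median of 0.22, against 19.6% higher, 15.2% lower and a median of 0.09 for all genes under 500. Of the 26 genes with a mean of 2000 or more, 6 (23.1%) were higher and 2 (7.69%) were lower, with a median of 0.00. Of all genes at that level 13.0% were higher and 27.8% lower, with a median of -0.07. The limits of 500 and 2000 were set after the values were seen. Ribosomal protein transcripts are also short, with a median length of 780 bases against 2606 for all listed genes. Over all genes with transcripts under 500 bases the median log2 fold change was 0.20, and for the 12 ribosomal protein genes among them it was 0.35. At 500 to 1000 bases, where 54 of the ribosomal protein genes lay, it was 0.08 over all genes and 0.20 for those 54. The part of length and level in the group's shift was not tested.

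**Figure D3:**
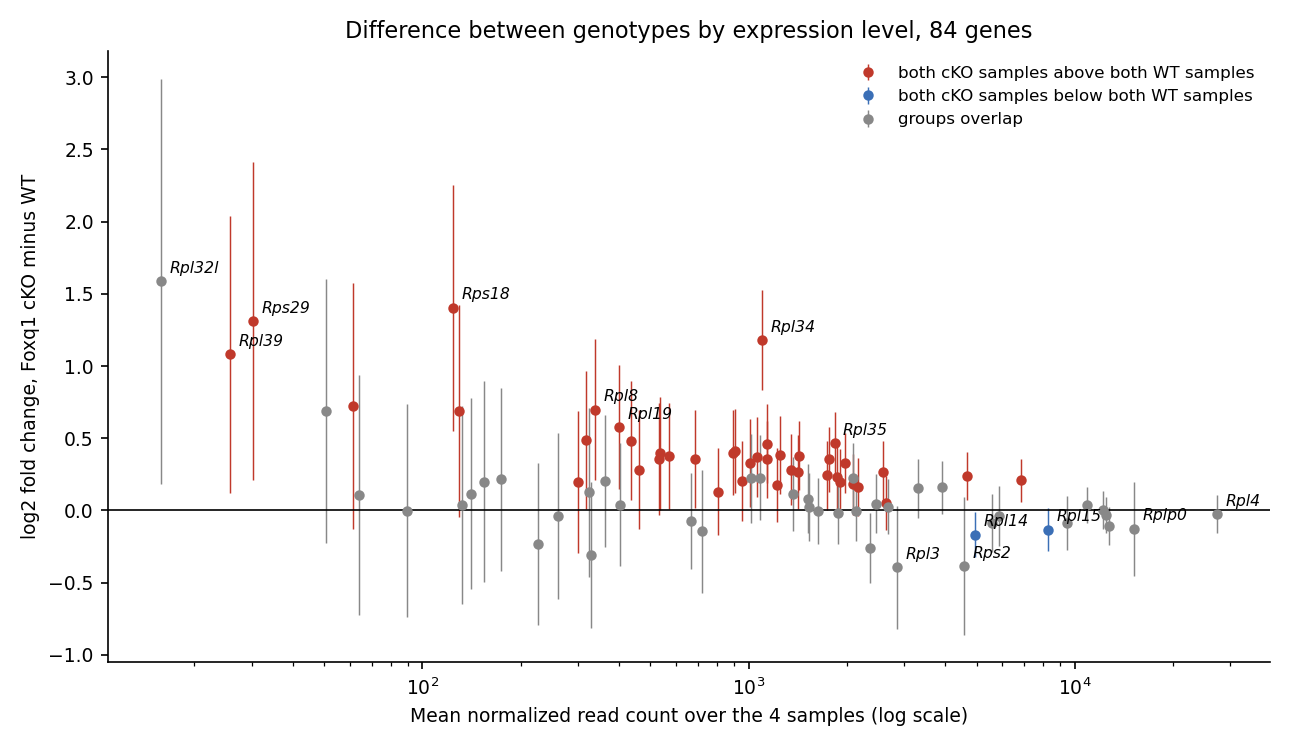
Log2 fold change (Foxq1 cKO minus WT) of the 84 tested genes with its standard error, against the mean normalized read count over the 4 samples (log axis). Colours mark genes whose groups do not overlap. Points above 0 prevail under about 2000 counts and cease to do so above, and among genes with a mean above 500 Rpl34 stands apart at a log2 fold change of 1.18.

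Among the large subunit genes, 26 of 50 (52%) were higher and 2 (4%) were lower without overlap, against 18% each way over all genes. Their median log2 fold change was 0.20. Rpl34 (ENSMUSG00000062006, chr3:130726831-130730398 in GRCm38, minus strand) was read at 527 and 835 normalized counts in WT and at 1337 and 1690 in Foxq1 cKO. Both Foxq1 cKO samples were thus above both WT samples, 2.22-fold in the mean. The log2 fold change was 1.18 (SE 0.347, limma unadjusted p = 0.0142, adjusted p = 0.857), and it was 0.85 to 1.51 when each sample was left out in turn. Without cKO replicate 2 the log2 fold change of Rpl34 was 1.01 and no longer passed the test (unadjusted p = 0.107 in limma). Rpl35, a protein of the tunnel exit, was read at 1476 and 1604 in WT and at 2012 and 2240 in Foxq1 cKO, with a log2 fold change of 0.46 (SE 0.221, unadjusted p = 0.0799 in limma). Rpl8, which lies near the peptidyl transferase centre, was read at 270 and 241 against 345 and 500. Its groups did not overlap, but the log2 fold change of 0.70 did not pass the test (SE 0.489, unadjusted p = 0.203 in limma). Rpl19 was read at 327 and 315 in WT and at 443 and 520 in Foxq1 cKO, and Rpl37a at 247 and 280 against 359 and 379. Within each group these 2 genes were close together, with log2 fold changes of 0.58 (SE 0.429) and 0.49 (SE 0.475). Rpl36a, on the X chromosome, stood at 394 and 332 in WT and at 520 and 491 in Foxq1 cKO (log2 fold change 0.48, SE 0.414). Rpl28 was read at 90.2 and 101 in WT and at 109 and 219 in Foxq1 cKO, where 1 sample was about as high as WT and the other carried the difference.

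Of the 9 genes of the peptide exit tunnel (Rpl4, Rpl17, Rpl19, Rpl22, Rpl23a, Rpl26, Rpl31, Rpl35 and Rpl39), 6 were higher without overlap and none was lower (66.7%, against 18% over all genes), with a median log2 fold change of 0.27. Rpl39 was the least abundant of them, with 13.5 and 18.9 normalized counts in WT and 31.6 and 38.7 in Foxq1 cKO, a log2 fold change of 1.08 with an SE of 0.958. Rpl14 was read at 5399 and 5047 in WT and at 4761 and 4539 in Foxq1 cKO, and Rpl15 at 7909 and 9422 against 7858 and 7894. These were the 2 genes lower without overlap, by 0.17 (SE 0.155) and 0.13 (SE 0.149) on the log2 scale, and neither passed the test.

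The 5S ribonucleoprotein, in which Rpl5 and Rpl11 hold the 5S rRNA and which can bind Mdm2 when ribosome assembly fails, was slightly higher in both of its members. Rpl5 was read at 1781 and 1413 in WT and at 1826 and 1929 in Foxq1 cKO (log2 fold change 0.24, SE 0.239). Rpl11 was read at 2621 and 2553 against 2667 and 2692 (log2 fold change 0.05, SE 0.186), a difference of 1.04-fold. Neither passed the test. The P-stalk, which recruits the elongation factors, showed no common direction, with a median log2 fold change of -0.01 over Rplp0, Rplp1, Rplp2 and Rpl12. Rplp2 alone was higher without overlap, with 911 and 934 in WT and 1097 and 1293 in Foxq1 cKO (log2 fold change 0.37, SE 0.276). Rplp1 was read at 2491 and 2323 against 2690 and 2296, and Rpl12 at 656 and 708 against 631 and 666. Rplp0 varied more between the samples of a group than between the groups, as described with its pseudogenes.

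Among the small subunit genes, 15 of 34 (44.1%) were higher and none was lower without overlap, against 18% each way over all genes. Their median log2 fold change was 0.19. The largest values belonged to genes with few reads. Rps18 was read at 50.6 and 73.8 in WT and at 95.8 and 278 in Foxq1 cKO, so the second Foxq1 cKO sample alone carried most of its log2 fold change of 1.40 (SE 0.851), which was 0.64 without it. Rps29 was read at 7.58 and 30.9 against 31.6 and 50.9 (log2 fold change 1.31, SE 1.10), and Rps21 at 34.5 and 58.8 against 64.2 and 87.5 (log2 fold change 0.72, SE 0.852). With 1 sample left out in turn Rps29 ran from 0.37 to 2.26 and Rps21 from 0.34 to 1.10, so neither size was well fixed. Rps15, also among the lowest, overlapped, with 50.6 and 26.9 in WT and 45.7 and 79.3 in Foxq1 cKO. Examples with more reads were Rps27 and Rps26. Rps27 was read at 1298 and 1188 in WT and at 1576 and 1656 in Foxq1 cKO, and Rps26 at 1442 and 1649 against 1901 and 2047. Their log2 fold changes were 0.38 (SE 0.239) and 0.36 (SE 0.226), and these 2 genes were picked as examples after their values were seen. Both share sequence with listed protein-coding genes, Rps27 with Rps27rt and Rps26 with Med21. The part of this in their differences was not tested. Rpsa, which is also known as the laminin receptor precursor, was read at 3085 and 3155 in WT and at 3972 and 3033 in Foxq1 cKO, where 1 sample was the highest and the other the lowest of the 4. Rps4x, the X-linked member, was read at 1963 and 1820 against 1776 and 1967, with a log2 fold change of -0.02 (SE 0.217).

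Genes mutated in Diamond-Blackfan anaemia, a failure of red cell production from insufficient ribosomal protein, followed the group as a whole. Of the 21 tested, 14 (66.7%) were higher and 1 (Rpl15, 4.76%) was lower without overlap, against 18% each way over all genes, with a median log2 fold change of 0.22. Rps19, the most frequently mutated of them, was read at 1202 and 963 in WT and at 1476 and 1332 in Foxq1 cKO. None of the 21 had an unadjusted p under 0.05 in limma, DESeq2 or edgeR, which called 5.22%, 6.49% and 4.98% of all genes.

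The paralogues had no common direction. Rps27l, which is known as a p53 target, was read at 961 and 950 in WT and at 1194 and 1455 in Foxq1 cKO (log2 fold change 0.46, SE 0.272). Rpl22l1 was read at 196 and 448 in WT and at 355 and 295 in Foxq1 cKO, so that its 2 WT samples enclosed both Foxq1 cKO samples, and the parent gene Rpl22 at 729 and 816 against 987 and 1048. Rpl7l1 was read at 6607 and 4928 against 5825 and 4945, and Rps4l, annotated as a pseudogene, at 1005 and 536 against 751 and 588. Rpl32l, another annotated pseudogene, was read at 5.06 and 3.99 in WT and at 4.35 and 49.8 in Foxq1 cKO, so its log2 fold change of 1.59 (SE 1.40) rested on 1 sample.

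Reads of ribosomal protein genes can match their pseudogenes, which limits what a count of a gene means. In GENCODE M21, a median of 58.2% of the 50-base words of a ribosomal protein gene's transcripts occurred in no other gene's transcripts, against 99.7% for all listed genes. For 35 of the 85 genes this share was under 50%, and it was lowest, at 4.91%, for Rpl35. Words shared with any other annotated gene lower it, not only those shared with pseudogenes. Rpl35 shared 677 words with Wdr38 and 337 with Gm2000, both protein coding, and 175 with the pseudogene Gm10269. Words were shared with other annotated genes by 83 of the 85 ribosomal protein genes, with a median of 8 annotated pseudogenes. The 35 genes with a share under 50% had a median log2 fold change of 0.13 and 14 were higher without overlap, while the other 49 tested had a median of 0.24 and 27 were higher. Over all genes 18% were higher without overlap. Genes on both sides of this limit thus had a median above 0, and genes on both sides share words with other genes. The part of shared words in the shift was not tested.

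In the table, 121 listed pseudogenes shared 50-base words with protein-coding ribosomal protein genes, and each was assigned to the gene with which it shared most. These pseudogenes belonged to 58 genes, and in 18 of the 58 they held more than 10% of the reads of the gene and its pseudogenes together. For some genes the split between the gene and its pseudogenes differed between samples far more than their sum. The clearest case was the P-stalk gene Rplp0. It was read at 11608 and 20180 normalized counts in WT and at 10981 and 17914 in Foxq1 cKO, so that the samples numbered 1 were low and those numbered 2 were high in both groups. Its processed pseudogene Gm8730 (chr8:102864845-102865798 in GRCm38) was read at 6503 and 51.8 in WT and at 5476 and 20.3 in Foxq1 cKO, and Gm9625 (chr13:67810246-67811200) at 2219 and 12 against 2093 and 4.07. The pseudogenes were thus high in exactly the samples in which Rplp0 was low. The sum of the 3 was 20331 and 20244 in WT and 18551 and 17939 in Foxq1 cKO. The 2 WT samples differed 1.74-fold for Rplp0 and 1.0-fold for the sum. On the sum both Foxq1 cKO samples were below both WT samples, with a log2 fold change of -0.15 (SE 0.107, unadjusted p = 0.199 in limma).

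Rpl3, whose protein reaches towards the peptidyl transferase centre, showed the same opposite pattern with a pseudogene on the X chromosome. It was read at 3583 and 2664 in WT and at 3654 and 1516 in Foxq1 cKO, while Rpl3-ps1 (chrX:13202571-13203780) was read at 38.8 and 716 against 39.2 and 1023. The samples numbered 2 were again set apart from those numbered 1 in both groups, here with the pseudogene high and the gene low. With its 2 listed pseudogenes Rpl3 summed to 3623 and 3391 in WT and 3699 and 2563 in Foxq1 cKO. Rps2-ps13 (chrX:52898588-52899469) followed the sample numbers in the same way, at 45.5 and 437 in WT and 33.7 and 394 in Foxq1 cKO. For Rps2 (7282 and 3183 in WT, 5242 and 2599 in Foxq1 cKO) the 10 listed pseudogenes held too few reads to even out the difference, and the sums were 7506 and 3773 against 5543 and 3105. A fold of more than 4 between samples 1 and 2 in the same direction in both groups was found for 6 of 99 such pseudogenes with a mean of at least 10, or 6.06%, against 1.24% of all 12472 genes. It was found for none of the 84 ribosomal protein genes themselves.

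For Rpl34, the one ribosomal protein gene past the unadjusted threshold, the gene and a copy differed between the genotypes in opposite directions. Rpl34-ps1 (chr6:71124610-71124963, plus strand), a single-exon copy in which every 50-base word also occurs in transcripts of other genes, was read at 529 and 466 normalized counts in WT and at 82.7 and 124 in Foxq1 cKO. It was lower in both Foxq1 cKO samples, with a log2 fold change of -2.28 (unadjusted p = 0.00693 in limma, adjusted p = 0.857), while Rpl34 was higher. The sum of Rpl34 and its 2 listed pseudogenes was 1066 and 1309 in WT and 1429 and 1823 in Foxq1 cKO. The groups still did not overlap, but the log2 fold change fell from 1.18 to 0.45 (SE 0.274) and no longer passed the test (unadjusted p = 0.149 in limma). Whether reads were assigned differently or each gene changed was not tested.

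**Figure D4:**
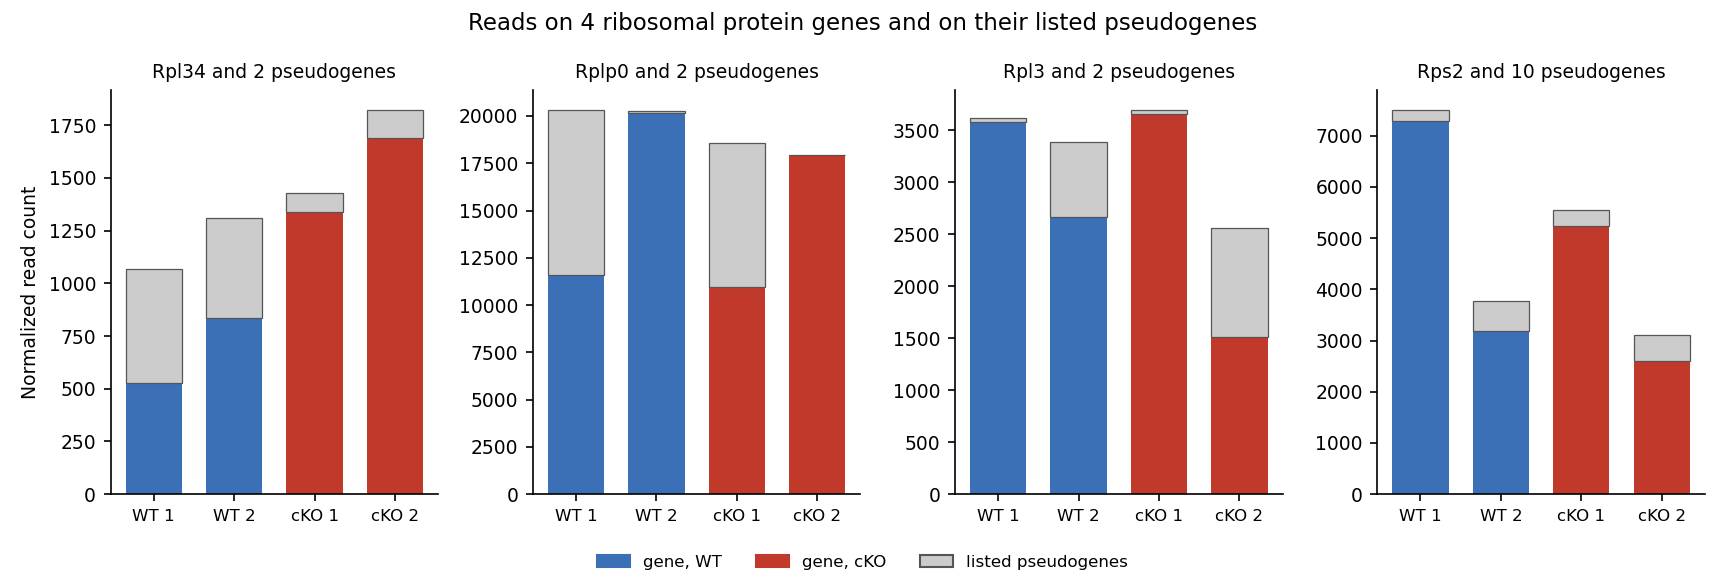
Normalized read counts per sample of Rpl34, Rplp0, Rpl3 and Rps2 (coloured, WT in blue and Foxq1 cKO in red) with the reads on their listed pseudogenes stacked on top (grey). The grey part of Rplp0 is large in the samples numbered 1 and nearly absent in those numbered 2, with sums of 17939 to 20331, whereas the grey part of Rpl34 is large in both WT samples and small in both Foxq1 cKO samples.

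Summing with pseudogenes left the median of the group about where it was. Only copies annotated as pseudogenes were summed, so listed copies annotated as protein coding were left out. Among these were Gm2000, which shares 337 of the 50-base words with Rpl35, and Rps27rt, which shares 296 with Rps27. Of the 79 protein-coding genes tested in this way, 41 were higher and 2 lower without overlap, against 18% each way over all genes before summing. The 2 lower sums were those of Rpl14 and Rplp0. The sum of Rpl15 overlapped, at 7974.6 and 9491.9 in WT and 7922.1 and 7975.5 in Foxq1 cKO. The median log2 fold change was 0.21. None of the 79 had an unadjusted p under 0.05 in limma, DESeq2 and edgeR were not run on the sums, and the smallest limma p was 0.0783. The share of reads on the genes and their pseudogenes was 1.27% and 1.26% in WT and 1.38% and 1.31% in Foxq1 cKO. The listed pseudogenes that share a word with any ribosomal protein gene had a median log2 fold change of 0.22 of their own over 95 tested, close to that of the genes. Without overlap 23.2% of these pseudogenes were higher and 10.5% lower, nearer the 18% of all genes than the 48.8% and 2.38% of the ribosomal protein genes. The median SE was 0.956 for these pseudogenes and 0.278 for the ribosomal protein genes.

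The lists of other translation genes differed in direction. Medians ran from -0.05 for other TOP messages to 0.32 for elongation, termination and recycling, where all 7 genes were above 0. The 14 other TOP messages, known to carry such a tract, encode elongation and initiation factors and RNA-binding proteins. Their median log2 fold change was -0.05, with 1 higher (7.14%) and 3 lower (21.4%) without overlap, against 18% each way over all genes. The list was not matched to the ribosomal protein genes by level, and Eef1a1, Eef2 and Eif4b had means of 115477, 13264 and 3699 normalized counts. Ribosomal protein genes with a mean of 2000 or more had a median of 0.00, and all genes at that level had -0.07. The part of level in this contrast was not tested. Eef1a1, which brings aminoacyl-tRNA to the ribosome, was read at 124348 and 116551 in WT and at 119688 and 101322 in Foxq1 cKO. Eef2, which drives translocation, was read at 15170 and 13836 against 13218 and 10833, below WT in both samples (log2 fold change -0.28, SE 0.147, unadjusted p = 0.109). Eif4b, a cofactor of the cap-binding helicase, was lower at an unadjusted p of 0.0473 in limma, with 5289 and 3617 in WT and 2872 and 3016 in Foxq1 cKO. Its adjusted p was 0.857. Among ribosomal protein genes outside the name rule, Fau, a fusion of a ubiquitin-like protein to a small subunit protein, was read at 1564 and 1771 against 1784 and 1968, and Rack1, the scaffold on the small subunit, at 4133 and 3167 against 3956 and 4164.

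Among 30 initiation factors the median log2 fold change was -0.04, with 4 higher (13.3%) and 6 lower (20%) without overlap, near the 18% of all genes each way, and 1 passed an unadjusted p of 0.05 (5.22% of all genes did). This was Eif3k, a small subunit of eIF3, at 2.53 and 2.99 normalized counts in WT and 103 and 25.4 in Foxq1 cKO. The 7 factors of elongation, termination and recycling all had log2 fold changes above 0 (median 0.32), and 1 (14.3%) was higher without overlap, near the 18% of all genes. RNA polymerase I and its factors, which make the large rRNA precursor, had a median of 0.29 over 13 genes with 4 higher (30.8%) and 3 lower (23.1%), and Polr1e, a subunit of the polymerase, was lower, with 669 and 729 in WT and 287 and 257 in Foxq1 cKO (unadjusted p = 0.0155). Of 50 ribosome assembly factors 8 were higher and 8 lower without overlap (16% each way, median 0.10), and 3 passed an unadjusted p of 0.05, shares near those of all genes. Riok2, a kinase of late small subunit maturation, was higher, at 819 and 663 against 315 and 296 in WT. Mdn1, the large ATPase that strips factors from the pre-large subunit, was lower, at 361 and 504 against 909 and 880, as was Rrs1, which helps to load the 5S ribonucleoprotein, at 566 and 537 against 945 and 1096. Their unadjusted p in limma was 0.0186, 0.0270 and 0.0317. None of these had an adjusted p under 0.857 in limma.

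**Figure D5:**
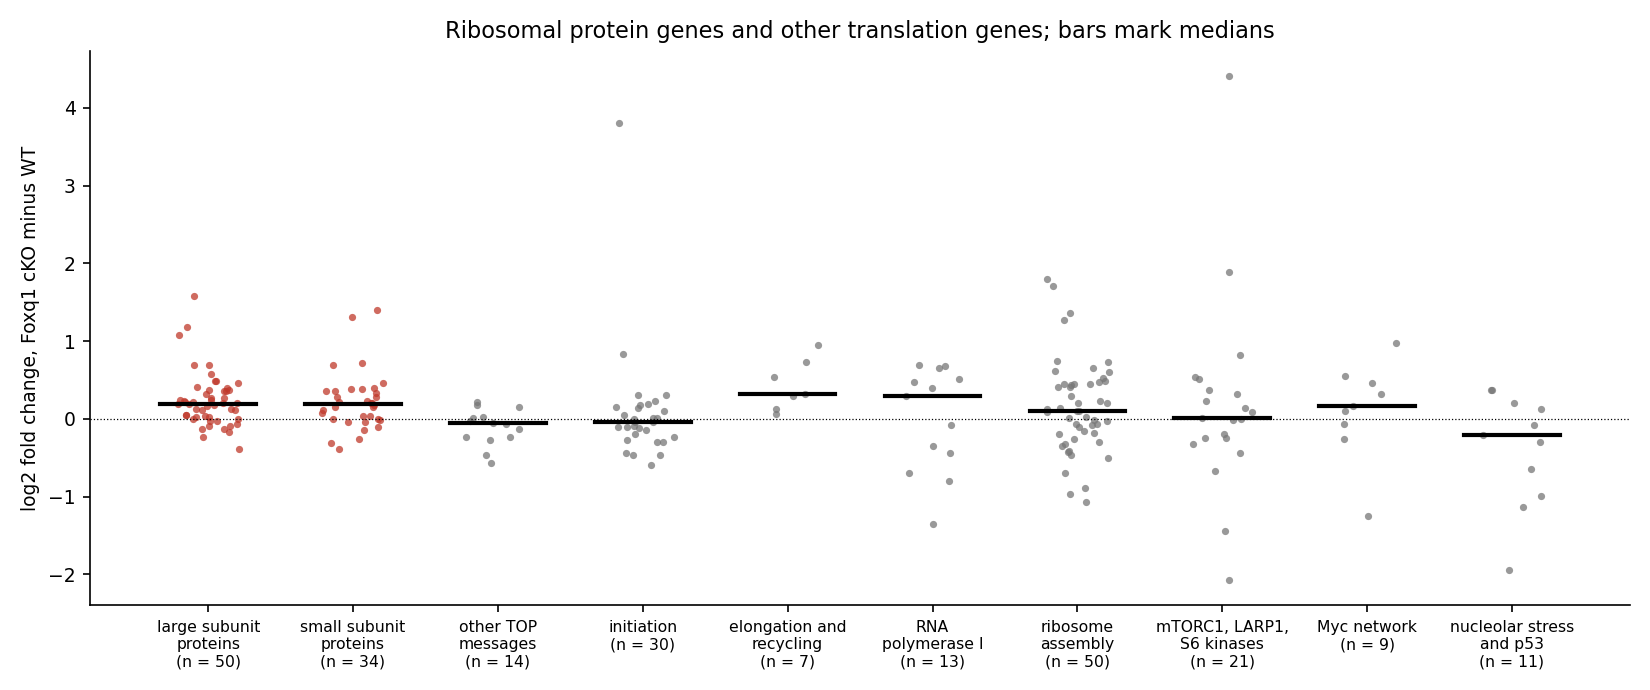
Log2 fold change (Foxq1 cKO minus WT) of each tested gene in the 2 groups of ribosomal proteins (red) and in 8 lists of other translation and growth genes (grey). Black bars mark the medians, which were 0.20 and 0.19 for the ribosomal proteins and between -0.20 and 0.32 for the other lists. The horizontal spread of points within a list has no meaning.

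The lists of regulators of ribosomal protein synthesis also differed in direction. Over 21 genes of the mTORC1, LARP1 and S6 kinase list the median log2 fold change was 0.01, with 4 higher (19.0%) and 3 lower (14.3%) without overlap, near the 18% of all genes each way. Mtor was read at 707 and 675 in WT and at 1043 and 938 in Foxq1 cKO (log2 fold change 0.52, SE 0.301, unadjusted p = 0.136). Larp1 was read at 59.8 and 584 in WT and at 968 and 505 in Foxq1 cKO, so that 1 WT sample was low and the other 3 samples overlapped, and without WT replicate 1 its log2 fold change of 1.89 (unadjusted p = 0.127 in limma) became 0.26. Without WT replicate 2 the log2 fold change of Larp1 was 3.52 (unadjusted p = 0.00125 in limma), so its call rested on which WT sample was kept. Akt1s1, an inhibitory subunit of mTORC1, was lower, with 4268 and 3379 against 2287 and 2475 (unadjusted p = 0.0162), as were the kinases Rps6ka2, at 914 and 568 against 297 and 234, and Rps6ka5, at 237 and 445 against 80.6 and 72.2, with unadjusted p of 0.0195 and 0.0213 in limma. Both of these belong to the RSK and MSK families and not to the S6 kinases that act downstream of mTORC1. Myc overlapped between the groups, with 526 and 1107 in WT and 1306 and 841 in Foxq1 cKO, and the 9 genes of its network had a median of 0.17. In the list of nucleolar stress and p53 genes the median was -0.20 over 11 genes, with 1 higher (9.09%) and 5 lower (45.5%) without overlap, against 18% each way over all genes. Sesn1, a p53 target that restrains mTORC1, was read at 4337 and 5134 in WT and at 2873 and 3143 in Foxq1 cKO (log2 fold change -0.65, SE 0.183, unadjusted p = 0.0116).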

How the data were processed

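The authors deposited 1 table of a signal per gene for the 4 samples, CD31-sorted brain ECs by the methods. Within a sample all values divide by the same number into whole reads (100% within a tolerance of 0.01), so the signal is a read count divided by a size factor, called a normalized count here. The submitters' processing notes name Bowtie2 2.2.3, TopHat2 2.0.12, HTSeq 0.6.0 and mm9, without their roles. How reads with several matches were counted, and whether strand was used, is not given in the sources used here. No listed gene had a sample without reads, and the lowest total was 21 reads, so full losses could not be seen. The table's 1207361 lines were reduced to 12693 symbols. Of 12701 identifiers, 12685 matched GENCODE M21 (GRCm38), which gave positions, lengths and 50-base words, with 1 kb of median basic transcript as the unit of length.

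Groups and replicate numbers came from the labels. Genotypes were compared with limma 3.58.1 in R 4.3.3 (linear model, moderation with a mean-variance trend). Values entered as log2 after adding 1, which understates changes of low genes, and 12472 genes whose mean reached 10 were tested, with Benjamini-Hochberg adjustment. DESeq2 1.42.0 and edgeR 4.0.16 were run on the recovered whole reads. P-values rest on 2 samples a group, and in limma the spread of a gene is drawn towards a trend over all genes. Amplified reads are not independent molecules. The labels name 2 ug of total RNA as input and the study's text names Smart-seq2, and which was used for these libraries could not be settled, so levels and values of short transcripts may carry the bias of either. The scripts were tested on simulated counts. Tables and figures were made with Python 3.11.15, pandas 2.3.3 and matplotlib 3.10.9.

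The genes and lists were chosen with earlier results of these data known. Genes were named by rule: ribosomal protein genes at an unadjusted p under 0.05, the 10 with the largest change without overlap, the 5 highest and 5 lowest by mean, the 5S, P-stalk and paralogue lists, Rpsa, Rps6 and Rps4x, up to 3 genes per translation list at an unadjusted p under 0.05, and named regulators. Others were named after their values were seen, as were all pseudogenes.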

Additional observations from a re-analysis of the deposited data

How the results depend on the processing

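The median log2 fold change of the ribosomal protein genes stayed above 0 in every alternative, between 0.17 and 0.26, and when each sample was left out in turn it was 0.17 to 0.20. The number of genes above 0 was 58 to 70 of 84 without 1 sample and was 71 under scaling to the total, which moved the median of all genes from 0.01 to 0.07. Their count at an unadjusted p under 0.05 was 10 without moderation, 2 with eBayes without a trend and 0 with pseudogenes summed (chosen after seeing the data), and 0 to 2 without 1 sample, with 2 without WT replicate 2 or cKO replicate 1 and 0 without cKO replicate 2. Over all genes DESeq2 called 59 at an adjusted p under 0.05, none of them a ribosomal protein gene, and the unadjusted count was 276 (without cKO replicate 1) to 1576 (without WT replicate 2).

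The small subunit median of 0.19 became 0.23 under quantile normalization and 0.25 under scaling to the total or to genes other than ribosomal protein genes, and it was 0.12 to 0.23 without 1 sample. The P-stalk median of -0.012 became 0.049, 0.047 and 0.049 under these 3 scalings and was -0.014 to 0.13 without 1 sample, and the exit tunnel median was 0.32 to 0.44. Small values changed sign: under quantile normalization Rpl6 was 0.094, Rpl7l1 0.026, Rps4x 0.015 and Rps6 0.011. Under the other 2 scalings Rpl4 was 0.033 and 0.034, Rpl6 0.026 and 0.027, and the log2 fold change of Rps4x was 0.043 and 0.044. Without 1 sample the ranges were -0.47 to 0.72 for Rpl22l1, -0.18 to 0.13 for Rpl4, -0.10 to 0.036 for Rpl6, -0.30 to 0.12 for Rpl7l1, -0.52 to 0.27 for Rplp0, -0.067 to 0.16 for Rplp1, -0.079 to 0.087 for Rps3, -0.60 to 0.31 for Rps4l, -0.090 to 0.057 for Rps4x, -0.041 to 0.35 for Rpsa, -0.078 to 0.99 for Myc and -0.026 to 0.36 for Rack1. The cause was not tested.

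The replicate numbers are shared between the groups, but nothing in the labels ties same-numbered samples, and their deviations from the group means had a correlation of 0.0325 over all genes and 0.236 over the ribosomal protein genes. With the replicate number as a block, 1 ribosomal protein gene had an unadjusted p under 0.05, as without it.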
